A study of Mus musculus with 6 samples.

Results

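The distal telomeric 5 Mb of the mouse autosomes held 9926 of the 207294 H3K9me3 peaks of the series, counted over its 4 libraries. A peak was a member when it overlapped the last 5 Mb of any of chromosomes 1 to 19, by the chromosome lengths of mm10. The shCTR libraries contributed 2584 peaks in replicate 1 and 2693 in replicate 2. The shPHF8 libraries contributed 2102 and 2547. Merged over the libraries, they formed 3117 regions, of 71107 on chromosomes 1 to 19, X and Y.

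The cells, neural stem cells (NSCs), came from the embryonic mouse cerebral cortex and were grown in culture with EGF and FGF. They carried a lentiviral shRNA, either a scrambled control (shCTR) or 1 directed against PHF8 (shPHF8), with 2 H3K9me3 ChIP libraries in each group. All groups were thus transduced, and the shRNA lowers PHF8 without deleting the gene. The deposited lists hold peak positions with no height and no read count, so the read depth behind a single peak cannot be given, and neither the loss of Phf8 nor the identity of the cells could be checked. Nothing in the labels says that the replicates came from separate animals or cultures, so the spread between them may be technical. Below, 4 values in a row are always given as shCTR replicates 1 and 2, then shPHF8 replicates 1 and 2.

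H3K9me3, the trimethylation of lysine 9 on histone H3, is written by enzymes such as SUV39H1 and SUV39H2, is bound by HP1 proteins and marks compact, mostly silent chromatin. It is known from pericentromeric satellites, telomeric repeats, retrotransposons and clusters of zinc finger genes. PHF8 is a histone demethylase that acts on H3K9me2, H3K9me1 and H4K20me1. Mouse chromosomes carry the centromere at their first bases, so that the last bases of the assembly lie next to the distal telomere, a long array of the hexamer TTAGGG that is itself almost wholly outside the assembly.

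The ends themselves come first, because they mark how far the assembly, and therefore any peak, can reach. An array of at least 4 TTAGGG hexamers in a row lay within 1 kb of the last assembled base on 18 of 19 autosomes, chromosome 4 being the exception. The longest such array was between 36 bp and 528 bp per autosome, and all 30 terminal arrays read TTAGGG on the plus strand. Across the autosomes, 0.0109% of assembled 1 kb windows held an array on either strand.

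Of the 30 terminal arrays, 1, 1, 0 and 2 were touched by a peak. The handling of reads that match several places is not given in the sources used here, so a lack of peaks on the arrays says little about the mark at the telomere itself.

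Next to the arrays, peaks were present on a minority of the autosomes. In the last 10000 assembled bases, 5 autosomes (1, 16, 17, 18 and 19) had a peak in all 4 libraries and 11 had none in any library. In the last 100000 assembled bases, the counts were 8 and 9. The region shared by all 4 libraries that lay nearest to an end was chr16:98103401-98107600, 168 bp from the last assembled base, with 3200, 3600, 3800 and 4200 covered bases. The next was chr19:61323601-61331200, at 366 bp, with 4200, 4200, 7600 and 6000 covered bases. The conditions did not overlap in either region, by a narrow margin on chromosome 16. Over the last 10000 assembled bases of chromosome 16 they did overlap, with 3200, 5432, 3800 and 4200 covered bases. Chromosomes 1, 17 and 18 followed, with the nearest shared region at 5371 bp, 5871 bp and 8439 bp from the last assembled base. The region of chromosome 17 covered 6600, 8200, 15000 and 11000 bases of chr17:94866401-94881400, more in both shPHF8 libraries than in either shCTR library. None of these regions on chromosomes 1, 16, 17 and 19 overlapped a protein-coding gene. Within the last 5 Mb, 42 further arrays lay inside the chromosome, 0.455 per assembled Mb against 0.117 in the rest of the autosomes. Peaks touched 5, 5, 7 and 3 of these 42, against 38, 30, 44 and 34 of the 269 arrays in the rest.

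The first comparison set the last 5 Mb against the rest of the same autosomes, within each library. Peaks covered more of the last 5 Mb than of the rest in all 4 libraries. The covered share of assembled bases (those that are not N) was 9.51%, 9.95%, 12.7% and 11.5% in the last 5 Mb, and 6.40%, 6.51%, 8.99% and 8.07% in the rest. The ratio of both shares was 1.49 and 1.53 in shCTR and 1.41 and 1.42 in shPHF8, with a geometric mean of 1.46 (log2 0.55 ± 0.05, SD, n = 4 libraries; exact two-sided sign-flip test, p = 0.125, the smallest that 4 libraries can give). The last 5 Mb made up 3.86% of the assembled autosomal bases and between 5.36% and 5.78% of the covered ones.

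This excess was spread unevenly over the autosomes. In all 4 libraries, 13 of 19 autosomes had a higher share in the last 5 Mb than in the rest, and the other 6 (3, 10, 12, 13, 17 and 18) had a lower share in all 4. Chromosome 4 stood highest, with 31.8%, 33.1%, 36.8% and 35.9% of its last 5 Mb covered. Chromosome 5 followed with 24.6%, 25.1%, 33.5% and 29.4%, and chromosome 9 with 13.5%, 14.6%, 19.7% and 16.7%. The conditions did not overlap on any of these 3. At the other end, the mean over the 4 libraries was 0.881% on chromosome 3, 1.04% on chromosome 18 and 2.70% on chromosome 13. The ratio of the last 5 Mb to the rest was 4.82 on chromosome 4, 2.65 on chromosome 5 and 2.41 on chromosome 16 as means over the libraries, and 0.127 on chromosome 18, 0.155 on chromosome 3 and 0.303 on chromosome 13. With chromosomes 4 and 5 left out, a choice made after their values were seen, the ratio in the 4 libraries was 1.17, 1.22, 1.15 and 1.15.

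**Figure D1:**
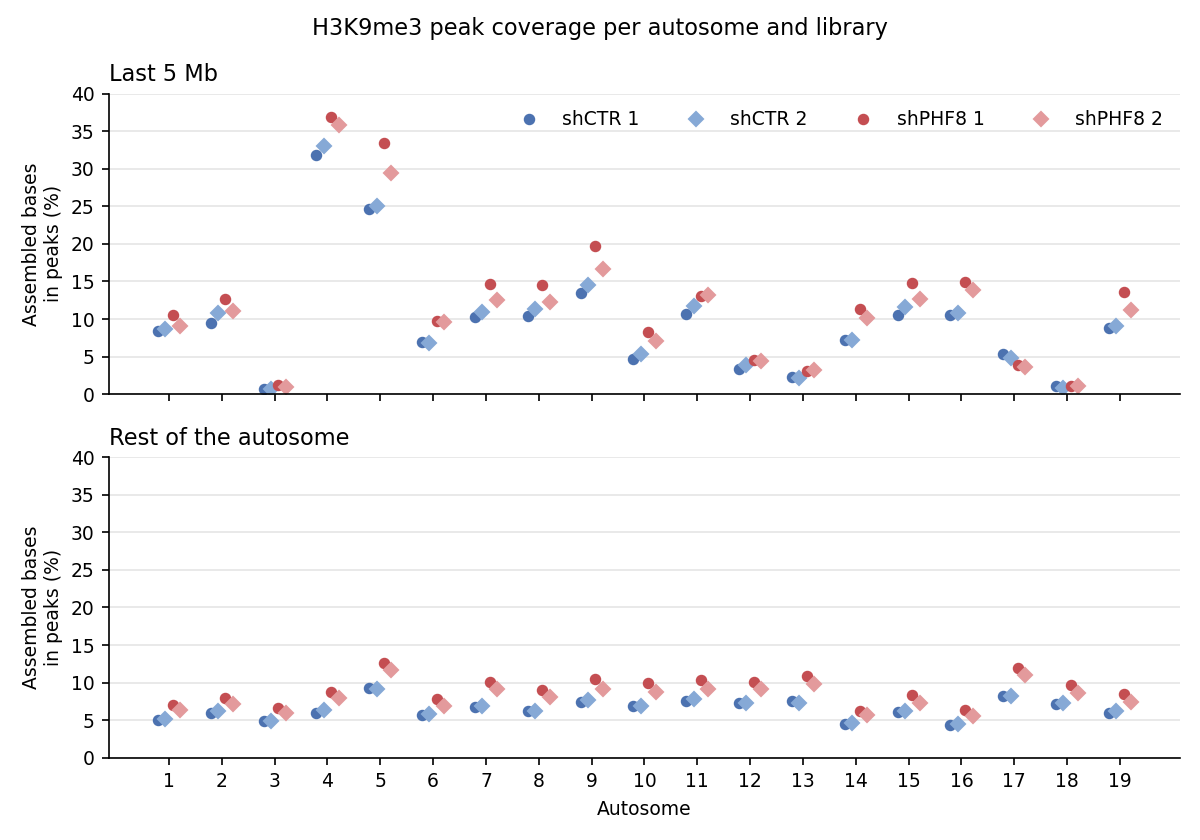
Share of assembled bases in H3K9me3 peaks (vertical axis, %) for each autosome (horizontal axis), in the last 5 Mb (top) and in the rest of the same autosome (bottom), with 1 point for each library. The points of the last 5 Mb spread from under 1% on chromosome 3 to 36.8% on chromosome 4, while those of the rest stay between 4.41% and 12.6%.

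Coverage did not rise steadily toward the telomere. In steps of 1 Mb from the end, summed over the autosomes, the outermost Mb was 5.33%, 5.39%, 7.22% and 6.35% covered. The next Mb inward was 5.94%, 6.80%, 8.01% and 7.26% covered. The outermost step lay below the rest of the autosomes in every library, and the next step in all but shCTR replicate 2. The highest step was the one from 3 to 4 Mb, with 14.3%, 14.6%, 19.1% and 17.2%, which is where the block of chromosome 4 described below lies. Beyond the last 5 Mb, the mean over the libraries in the steps from 5 to 17 Mb stayed between 10.2% and 15.6%, so the 5 Mb boundary marked no edge. Counting only the last 2 Mb, the ratio to the rest was 0.863, and counting the last 10 Mb it was 1.64.

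**Figure D2:**
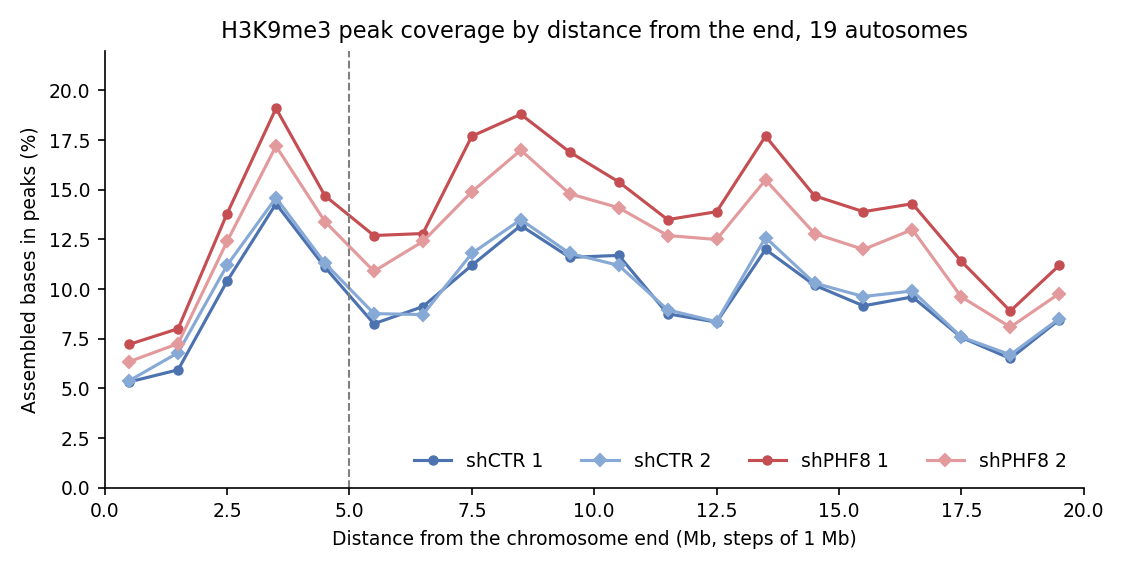
Share of assembled bases in peaks (vertical axis, %) against the distance from the chromosome end in steps of 1 Mb (horizontal axis), summed over 19 autosomes, with 1 line for each library. The dashed line marks 5 Mb; the outermost step is the lowest of the last 5 Mb in every library, and the shPHF8 lines lie above the shCTR lines in every step.

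Base composition moved with the coverage. The last 5 Mb had a GC content of 43.8% against 41.9% in the rest, 9.58 against 8.47 CpG dinucleotides per kb, and 31.2% against 33.6% of soft-masked (repeat) bases. GC content was lower in the last 5 Mb than in the rest on 5 autosomes, and all 5 were among the 6 with less coverage there. Of the 14 autosomes with a higher GC content in the last 5 Mb, 13 had more coverage there, the exception being chromosome 10 (43.2% against 41.3% GC). Over the 19 autosomes, which share a library, the log2 ratio of coverage and the GC difference had a Pearson r between 0.80 and 0.85 and a Spearman coefficient between 0.66 and 0.78 in the 4 libraries, given as a description only.

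When the rest of the autosomes was weighted to the GC classes of the last 5 Mb, the ratio fell to 1.15, 1.16, 1.10 and 1.11. Within bins of 30 kb with 42% to 46% GC, 9.82%, 9.94%, 14.16% and 12.45% of the last 5 Mb was covered, against 9.64%, 9.74%, 14.01% and 12.37% of the rest. The zones were thus close in this class. In bins with 46% to 50% GC, the shares were 17.001%, 18.2%, 23.2% and 20.8% in the last 5 Mb and 13.7%, 14.5%, 19.1% and 16.9% in the rest, higher in the last 5 Mb in all 4 libraries. In bins with 38% to 42% GC the order was the opposite in all 4, with 3.49%, 3.42%, 4.68% and 4.15% in the last 5 Mb against 3.81%, 3.65%, 5.23% and 4.85% in the rest. Below 38% and above 50% GC, the last 5 Mb was again higher in all 4. The part of GC content in the ChIP, the sequencing or the chromatin was not tested.

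The widest blocks of the mark in the last 5 Mb lay around Ajap1 and over the Hoxc cluster. The 3 widest regions present in all 4 libraries were on chromosome 4, around Ajap1, which encodes an adherens junction associated membrane protein. They were chr4:153390801-153742600 (351800 bp, across the start of Ajap1), chr4:153204401-153390000 (185600 bp, over the end of Ajap1) and chr4:152945201-153087400 (142200 bp, in no protein-coding gene). The first had 346000, 340200, 349200 and 349200 covered bases, close to its full width in each library.

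These regions belonged to a single run of consecutive 30 kb bins that were each at least 50% covered in every library. It reached from 152610001 to 153930000 on chromosome 4, over 1320 kb, and was the longest of 518 such runs on the autosomes. It was 89.9%, 87.7%, 92.8% and 92.3% covered. The runner-up, 510 kb on chromosome 5, lay outside the last 5 Mb. Ajap1 was the only protein-coding gene in the run, with 97.6%, 97.8%, 99.1% and 98.4% of its 109591 bases covered. The run held 77.7%, 72.9%, 69.3% and 70.8% of all covered bases in the last 5 Mb of chromosome 4. Without it, a choice made after its values were seen, 9.80%, 12.4%, 15.6% and 14.5% of the remaining bases were covered, still above the rest of chromosome 4, with 6.02%, 6.32%, 8.72% and 7.90%. The conditions overlapped neither in the run nor in the remainder.

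Next in width were chr15:102894401-102987400 (93000 bp) and chr15:102988401-103075600 (87200 bp), which cover the Hoxc cluster, homeobox genes that pattern the trunk and limbs and are silent in the cerebral cortex. All 9 Hoxc genes were at least 50% covered in all 4 libraries. Hoxc13, Hoxc12, Hoxc11, Hoxc10 and Hoxc8 were 100% covered in each, and the lowest value in the cluster was 86.6%, for Hoxc4 in shCTR replicate 1. None of the 9 genes had libraries that did not overlap between the conditions.

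Several other transcription factor genes were covered likewise. Isl1, a LIM homeobox factor of motor neurons and pancreas, Cdx2 and Pdx1, homeobox factors of gut and pancreas, Vax1, a homeobox factor of the ventral forebrain and optic stalk, and Sp8, a zinc finger factor of limb and forebrain, were 100% covered in all 4 libraries. In total, 38 of 1124 protein-coding genes in the last 5 Mb (3.38%) were at least 50% covered in all 4 libraries, against 2.47% of the 21938 protein-coding genes of the genome. A peak of any size in all 4 libraries was found in 320 genes (28.5%), against 29.4% of all genes. The last 5 Mb held 12.2 protein-coding genes per assembled Mb and the rest 8.54.

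The promoters of 3 of these covered genes and of Plxna2, whose gene body is described below, are printed from RefSeq (GRCm38.p6), from 250 bases before to 50 bases after the start site, on the strand of the gene, with CG dinucleotides in capitals. They show what the peaks cover at a start site, and 19 of the 38 genes had an entry in the table. The Ajap1, Hoxc4 and Isl1 stretches were covered over all 300 bases in each of the 4 libraries and hold 51, 9 and 37 CG, whereas the Plxna2 stretch, with 25 CG, was covered in none. The Hoxc4 stretch belongs to a start site inside the GENCODE gene, which begins upstream at position 103018934.
Ajap1, chr4:153482781-153483080, minus strand: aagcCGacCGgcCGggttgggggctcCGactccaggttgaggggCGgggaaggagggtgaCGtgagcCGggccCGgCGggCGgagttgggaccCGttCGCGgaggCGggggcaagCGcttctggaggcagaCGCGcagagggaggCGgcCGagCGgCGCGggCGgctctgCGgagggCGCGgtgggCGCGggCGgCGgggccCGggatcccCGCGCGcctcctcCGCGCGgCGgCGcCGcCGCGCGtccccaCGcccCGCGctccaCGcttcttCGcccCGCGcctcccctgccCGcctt
Hoxc4, chr15:103034145-103034444, plus strand: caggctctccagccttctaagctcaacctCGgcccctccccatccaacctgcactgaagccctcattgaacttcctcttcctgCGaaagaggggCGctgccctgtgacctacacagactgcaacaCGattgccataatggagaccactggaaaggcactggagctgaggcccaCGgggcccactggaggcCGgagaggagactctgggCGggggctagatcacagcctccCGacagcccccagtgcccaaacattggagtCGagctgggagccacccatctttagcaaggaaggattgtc
Isl1, chr13:116309639-116309938, minus strand: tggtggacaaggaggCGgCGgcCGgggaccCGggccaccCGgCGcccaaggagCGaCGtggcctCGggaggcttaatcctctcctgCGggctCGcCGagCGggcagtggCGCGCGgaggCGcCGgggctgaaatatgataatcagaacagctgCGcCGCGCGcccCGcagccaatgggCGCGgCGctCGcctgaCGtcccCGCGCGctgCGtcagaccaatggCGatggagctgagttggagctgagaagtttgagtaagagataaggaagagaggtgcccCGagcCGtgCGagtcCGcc
Plxna2, chr1:194619579-194619878, plus strand: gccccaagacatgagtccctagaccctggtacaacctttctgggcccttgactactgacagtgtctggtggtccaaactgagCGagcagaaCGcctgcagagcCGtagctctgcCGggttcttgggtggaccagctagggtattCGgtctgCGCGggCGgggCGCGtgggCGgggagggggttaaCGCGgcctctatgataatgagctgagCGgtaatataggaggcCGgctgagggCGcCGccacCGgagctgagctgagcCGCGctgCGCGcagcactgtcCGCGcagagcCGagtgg

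The imprinted genes at the end of chromosome 7 belong to a cluster in which many, but not all, genes are read mainly from the maternal or the paternal copy. Of its 19 listed genes, 9 had a peak in all 4 libraries and 7 had none in any. Cdkn1c, an inhibitor of the cell cycle, and Phlda2, a growth suppressor of the placenta, were 100% covered in each library. Igf2, the fetal growth factor, was 88.5%, 82.3%, 100% and 94.8% covered, its antisense transcript Igf2os 83.1%, 92.5%, 100% and 100%, and Kcnq1ot1, the antisense RNA of the Kcnq1 domain, 60.3%, 68.9%, 63.1% and 54.5%. Igf2 and Igf2os overlap on the chromosome. Ascl2, a basic helix-loop-helix factor of the trophoblast, had 2.63%, 2.63%, 42.5% and 89.2%, a rise in both shPHF8 libraries.

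Other gene families were counted by list, beside 28.5% of the protein-coding genes of the last 5 Mb with a peak in all 4 libraries. None of 34 immunoglobulin heavy chain variable genes on chromosome 12 had a peak in any library. These genes are short, at most 497 bp, beside a median of 14100 bp for the protein-coding genes of the last 5 Mb. Of 76 olfactory and vomeronasal receptor genes, 68 had none in any and 2 had a peak in all 4. Of 15 zinc finger (Zfp) genes, 8 had none in any, 5 had a peak in all 4, and Zfp445, a regulator of imprinting, was at least 50% covered in each, with 65.2%, 55.9%, 60.5% and 54.9%. Outside the last 5 Mb, 214 of 379 Zfp genes had a peak in all 4 libraries. The same was found there for 18 of 1390 olfactory and vomeronasal receptor genes and 0 of 79 immunoglobulin heavy chain variable genes. Of 26 keratin genes on chromosome 15, 3 had a peak in all 4.

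Genes of neuronal adhesion, receptors and channels, were listed with their place at these ends known. Of them, 21 of 25 had a peak in all 4 libraries, beside 28.5% of all protein-coding genes of the last 5 Mb, and Ajap1 and Adcyap1, which encodes the neuropeptide PACAP, were at least 50% covered in each. Many of these genes are long, and the share of each that was covered was mostly small, as in Negr1 with 0.344%, 0.742%, 1.19% and 1.09%. Among 10 neural transcription factors, 6 had a peak in all 4 libraries, and Isl1 and Sim2 were at least 50% covered in each. Prdm16, also among the 6, was 19.1%, 26.3%, 36.2% and 29.3% covered. The other 4, Hes5, Zic2, Zic5 and Emx2, all known from cortical or dorsal progenitors, had no peak in any.

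The second comparison set shPHF8 against shCTR within the last 5 Mb. The covered share was 9.73% ± 0.315 in shCTR and 12.1% ± 0.883 in shPHF8 (SD, n = 2 each), a ratio of 1.24 (p = 0.333 by an exact permutation over libraries, two-sided; 2 against 2 libraries allow no smaller p). In the rest of the autosomes it was 6.46% ± 0.0753 and 8.53% ± 0.649, a ratio of 1.32 (exact permutation test, p = 0.333). The conditions overlapped in neither zone. The last 5 Mb thus differed between the conditions by a smaller factor than the rest, and the ratio of both ratios was 0.939 (exact permutation test, p = 0.333), with both shPHF8 libraries below both shCTR libraries. When every library was scaled to the same covered length on the autosomes, the ratio in the last 5 Mb turned to 0.943.

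The additional bases lay in wider peaks and not in more of them. The median peak of the last 5 Mb was 2400 bp, 2600 bp, 4200 bp and 3000 bp wide, and the widest was 74800 bp, 77400 bp, 139400 bp and 198200 bp. Peaks over 10 kb numbered 84, 77, 163 and 117, more in both shPHF8 libraries. The number of peaks was 2638 ± 77.1 in shCTR and 2324 ± 315 in shPHF8 (SD, n = 2 each), with shPHF8 replicate 2 only slightly below the shCTR libraries. The rest of the autosomes showed the same shift in width, with medians of 2400 bp, 2400 bp, 4200 bp and 2800 bp. Its peaks numbered 50455, 51159, 42103 and 52797, so there shPHF8 replicate 2 had more peaks than either shCTR library. The peak lists hold no read counts. In the read totals listed by the study, whose values are not used here, shPHF8 replicate 1, with the widest median, was about as deep as the shCTR libraries and shPHF8 replicate 2 was the shallowest. The part of read depth in the peak widths was not tested.

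By chromosome, the share covered in the last 5 Mb was higher in both shPHF8 libraries than in both shCTR libraries on 18 of 19 autosomes, against 100% of the 19 autosomes for the rest of the chromosome. On 13 autosomes the factor was smaller in the last 5 Mb than in the rest. The ratio of the last 5 Mb to the rest was lower in both shPHF8 libraries on 7 autosomes and higher on 5. The conditions overlapped in this ratio on 7. The factor in the last 5 Mb ran up to 1.60 on chromosome 3, where the shares were only 0.706%, 0.649%, 1.20% and 0.971%. On chromosome 4 it was 1.12 against 1.35 in the rest, and on chromosome 5 it was 1.26 against 1.32.

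**Figure D3:**
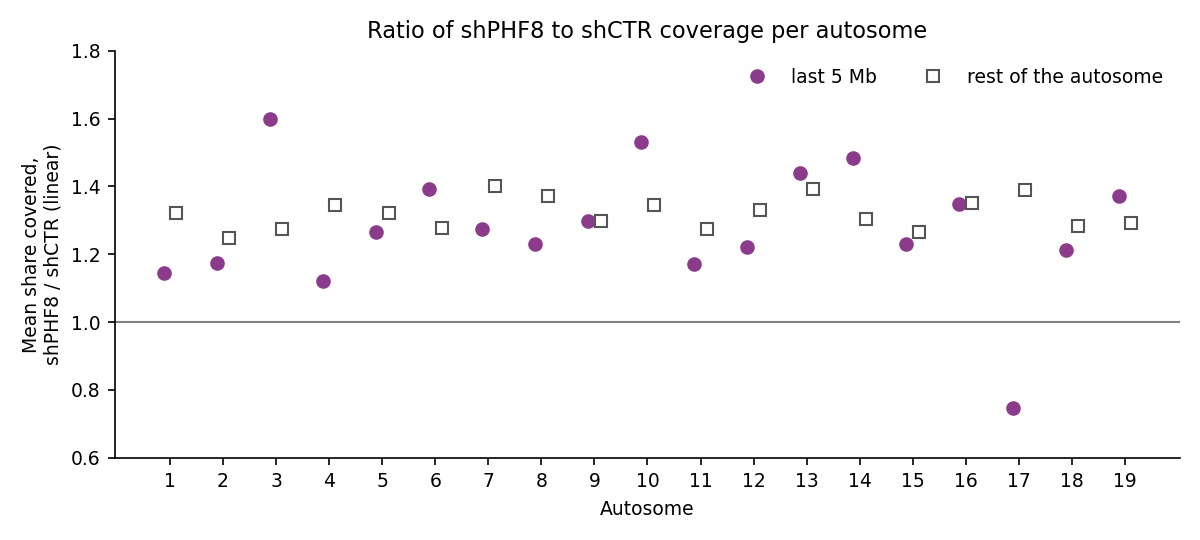
Ratio of the mean share covered in shPHF8 to that in shCTR (vertical axis, linear) for each autosome (horizontal axis), in the last 5 Mb (filled circles) and in the rest of the autosome (open squares). The last 5 Mb of chromosome 17, at 0.748, is the only point below 1.

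Chromosome 17 was the exception. Its last 5 Mb was 5.32%, 4.80%, 3.91% and 3.66% covered, lower in both shPHF8 libraries, while the rest of the chromosome was 8.27%, 8.25%, 11.9% and 11.0% covered, higher in both. The conditions did not overlap in either part of the chromosome, and their directions were opposite. The fall was not spread over the whole zone. It was largest in the 0.5 Mb step that begins 4.5 Mb from the end, with 23.7%, 27.2%, 12.2% and 9.32% covered. The outermost 0.5 Mb went the other way, with 8.25%, 7%, 11% and 11%.

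**Figure D4:**
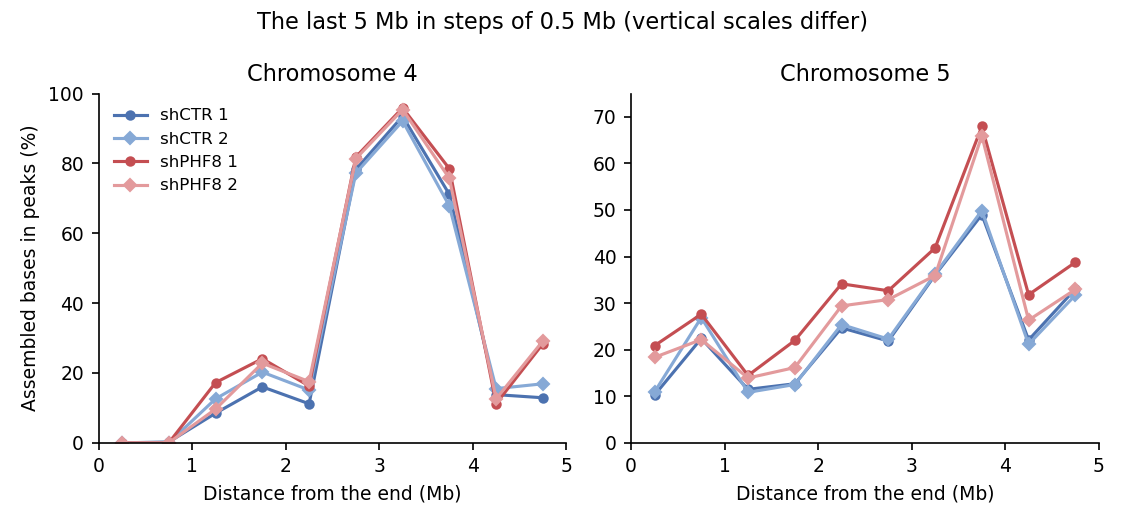
Share of assembled bases in peaks (vertical axes, %, with different scales) along the last 5 Mb of chromosomes 4 and 5 in steps of 0.5 Mb (horizontal axes, distance from the end in Mb), with 1 line for each library. On chromosome 4 all libraries share a plateau of up to 95.9%. On chromosome 5 the shPHF8 lines lie highest at the step that holds the whole of Mtus2 (67.9% and 65.9% against 49.0% and 49.9%).

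In bins of 30 kb, 1846 of 3177 bins in the last 5 Mb had a peak in any library. Covered bases were higher in both shPHF8 than in both shCTR libraries in 582 of these (31.5%), against 29.8% of all bins with a peak on chromosomes 1 to 19, X and Y. They were lower in both in 164 (8.88%), against 8.85%. Both shares were near the background. Leaving out each library in turn gave 42.2% to 53.8% higher and 16.7% to 21.4% lower. Of the bins that moved in either direction, 78.0% moved up, against 77.4% over the whole autosomes. With libraries scaled to the same covered length, 291 bins were higher and 435 lower, so that 40.1% moved up, against 47.7% over the whole autosomes. By chromosome, 43.4% of the bins with a peak were higher on chromosome 5, 40.4% on chromosome 19 and 40.2% on chromosome 4. On chromosome 17, 15.0% were higher and 26.7% lower.

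Among the 3117 merged regions, 114 (3.66%) were gained, that is present in both shPHF8 and in neither shCTR library, against 4.28% of all regions. Lost regions, present in both shCTR and in neither shPHF8 library, numbered 150 (4.81%), against 5.03% of all regions. Regions present in all 4 libraries numbered 1343 (43.1%), against 37.8% in the rest of the autosomes. Chromosome 17 held 18 of the lost regions and 1 of the gained. Leaving out each library in turn gave 7.19% to 12.2% gained and 7.49% to 14.2% lost, since fewer libraries then had to differ.

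The widest gained regions were under 10 kb. The widest, chr2:178459401-178468400 in Cdh26, a cadherin, had no covered base in shCTR and 5000 and 7600 in shPHF8. The next, chr4:154526401-154534800, lay in Prdm16, a zinc finger regulator of cortical radial glia, with 8400 and 3400 covered bases in shPHF8. The others were chr2:178937601-178945600, between genes, chr15:101545201-101553000, over the keratin genes Krt82 and Krt90, and chr5:149598801-149606600 in Wdr95. Of the gained regions, 4 of 114 (3.51%) lay within 1 kb of the start of a protein-coding gene, against 2.50% of all gained regions and 7.59% of the distal regions present in all 4 libraries.

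Lost regions were narrower still, with a median of 2400 bp against 4500 bp for the gained ones. Over chromosomes 1 to 19, X and Y, the medians were 2600 bp for lost and 4200 bp for gained regions. The widest, chr2:180845201-180851600, lay in no protein-coding gene, with 3200 and 3400 covered bases in shCTR. The next were chr1:194732601-194738800 in Plxna2, with 5200 and 6200 covered bases in shCTR, and chr6:145068001-145074200 in an intron of Bcat1, with 4800 and 5400. Of the lost regions, 14 of 150 (9.33%) lay within 1 kb of a protein-coding start, against 7.01% of all lost regions.

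Over protein-coding genes, covered bases were higher in both shPHF8 libraries in 147 of 1124 genes (13.1%), against 13.0% of all 21938. They were lower in both in 55 (4.89%), against 6.08%. The genes of the last 5 Mb thus moved at about the rate of the genome. The genes named next had the largest changes in bases, a measure that favours long genes.

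Among the genes that rose, Camta1, a calmodulin-binding transcription activator of neurons, had the largest change over the whole gene, with 142800, 167200, 309000 and 264400 covered bases, 1.85 times as many in shPHF8. It straddles the inner edge of the zone, and the part inside had 36.1 kb, 53.5 kb, 103.5 kb and 101.1 kb covered, a smaller change in bases than that of Mtus2, which lies wholly inside. Mtus2, which encodes a microtubule-associated protein, had 218465, 217400, 286665 and 294665, and was more than 60% covered in every library. Prdm16 had 61200, 84400, 116200 and 94000. Kcnj6, an inwardly rectifying potassium channel, had 35501, 46101, 82600 and 61800. In each of these the shPHF8 libraries lay above the shCTR libraries, by a narrow margin in Prdm16. Shank2, a scaffold of the postsynaptic density, had 50600, 48800, 85673 and 73800 covered bases. Atrnl1, Ulk4 and Fry rose by factors of 1.56, 1.55 and 1.37. None of the 8 genes had over 4 gained regions.

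Among the genes that fell, Plxna2, a plexin receptor for semaphorins in axon guidance, had 23583, 35000, 6600 and 7800. The RefSeq stretch printed above had no peak in any library, whereas within 1 kb of the GENCODE start, which lies upstream of it, 1383 bases were covered in shCTR replicate 1 and none in the other libraries. In all, 2 lost regions lay in the gene. Cdh4, the adhesion molecule R-cadherin, had 133000, 137600, 121000 and 112200, a fall of smaller proportion. Bcat1, the cytosolic branched-chain aminotransferase, had 24000, 21200, 10200 and 12400. Slc7a1, a transporter of arginine and lysine, had 36600, 40800, 29200 and 26800. Lars2, the mitochondrial leucyl-tRNA synthetase, had 18266, 15066, 3266 and 6666. In all 3 the conditions did not overlap, and Slc7a1 fell least in proportion. Stard13, which carries a lipid-binding START domain, and Plekhg5, a guanine nucleotide exchange factor, fell to 0.792 and 0.129 times their shCTR means.

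**Figure D5:**
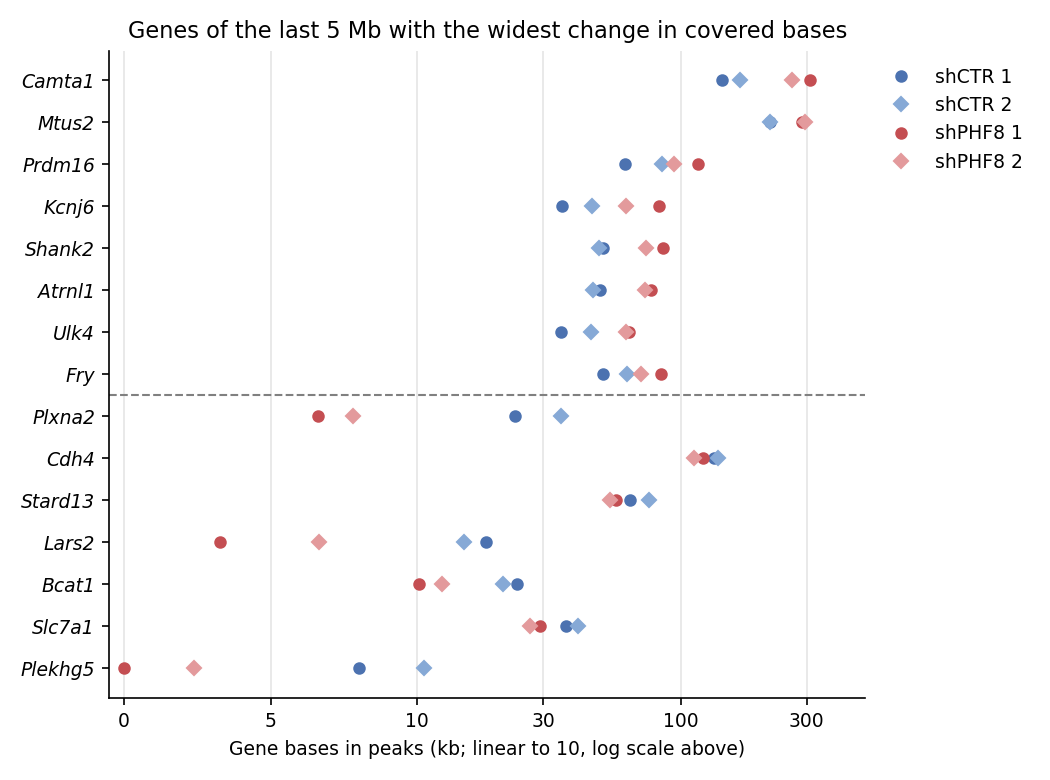
Covered bases of each whole gene (horizontal axis, kb, linear to 10 and on a log scale above) in each library for the 8 genes with the largest rise (above the dashed line) and 7 of the 8 with the largest fall (below it) among those whose libraries do not overlap. In Plxna2 the shCTR points stand for 23583 and 35000 bases and the shPHF8 points for 6600 and 7800.

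By list, 9 of the 25 neuronal adhesion, receptor and channel genes were higher in both shPHF8 libraries and 4 lower, Cdh4 and Cbln2 among them, beside 13.1% higher and 4.89% lower over all protein-coding genes of the last 5 Mb. Many of the listed genes are long, and the part of gene length in these counts was not tested. The same background holds for the lists that follow. Cbln2, a synaptic organizer, was 69.7%, 57.03%, 36.2% and 30.7% covered. Of the 10 genes listed as neural transcription factors, Prdm16 and Ascl2 were higher and Gli1 and Sim2 lower. The list holds Ascl2, known best from the trophoblast, and leaves out Vax1 and Sp8. Of the 26 keratin genes, 6 were higher and 3 lower, with neighbours moving in opposite directions: Krt4 had 0%, 26.9%, 100% and 90.3% covered, and Krt1 81.8%, 85.6%, 48.4% and 0%. Of the 15 Zfp genes, 3 were higher (Zfp941, Zfp386 and Zfp950) and none lower. Of the genes listed for the imprinted cluster, Igf2, Igf2os, Ascl2 and Dhcr7 were higher and none lower. These lists are small, and several members share a peak with a neighbour.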

How the data were processed

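H3K9me3 ChIP-seq was analysed in 2 shCTR and 2 shPHF8 libraries; 2 input samples were not used here. The deposited files hold peak positions only (a start and an end per peak, no score, and no counts), called by the authors with SICER2 for broad marks, 1 list per library. The study's methods name SOAP2 and mm10, whereas the submitters' processing notes name Bowtie2 2.3.5.1 and SAMtools 1.9 with mm10; which made these lists is unsure. Window, gap and false discovery settings and the use of input are not given in the sources used here; every width was a multiple of 200 bp and the smallest gap 800 bp. Peaks on the mitochondrial genome, 2 per library, were left out of coverage.

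Covered bases were counted per autosome, per bin of 30 kb (placed by midpoint), per merged region and per GENCODE M21 gene, over bases that are not N (Python 3.11.15, numpy 2.4.6), and the functions were checked on simulated peaks against bedtools 2.31.1. Library ratios were tested with exact sign-flip and permutation tests; bins, regions and genes were counted without a test, a call meaning that the conditions did not overlap. Such counts rest on called peaks, so depth and thresholds enter them. Named regions were the 5 widest per class, those nearest the ends and list members at least 50% covered; named genes were the 8 with the largest change in each direction; items withheld from the text are not reported here. Members and lists were chosen with earlier results of these data known.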

Additional observations from a re-analysis of the deposited data

How the results depend on the processing

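Over the other zone widths, denominators, peak widths, weightings, omitted chromosomes and omitted libraries tried, coverage stayed higher in the last 5 Mb than in the rest, except in the last 2 Mb (0.863). It stayed higher in shPHF8 than in shCTR except after scaling to equal covered length (0.943). The ratio of both ratios stayed below 1 throughout, but with the last 10 Mb it was 0.998 and the conditions overlapped. Bins called higher fell to 8.50% and bins called lower to 1.68% when a gap of 3000 covered bases was required; after scaling they were 15.8% and 23.6%; with peaks of at least 5000 bp, 2.21% were lower. Gained regions rose to 8.82% when presence needed 50% of the region, and with peaks of at least 5000 bp 12.7% were gained and 0.645% lost. Leaving out each library gave 42.2% to 53.8% of bins higher, 16.7% to 21.4% lower, 7.19% to 12.2% of regions gained and 7.49% to 14.2% lost, since fewer libraries had to differ, and ratios of 1.44 to 1.48 (last 5 Mb to rest), 1.18 to 1.31 (shPHF8 to shCTR) and 0.926 to 0.953 (ratio of ratios). With the replicate number as a block, the ratios were 1.24 and 0.939 (exact test, p = 0.5 each), and 36.7% of bins were higher and 11.2% lower. The deviations of same-numbered libraries from their condition means were nearly uncorrelated (r = -0.07 over 1846 bins). With 2 libraries per condition, this cannot decide whether the replicate numbers pair the libraries. The lists hold no read counts, so no peak could be weighed by its depth.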
